A study of Mus musculus with 8 samples.

Results

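The genes described here are 10 secreted ligands of receptor tyrosine kinases, *Fgf2*, *Fgf7*, *Fgf10*, *Hgf*, *Pdgfa*, *Pdgfb*, *Pdgfc*, *Pdgfd*, *Vegfc* and *Angpt1*. They were taken by gene name from the 54532 genes of the deposited expression table, and each name matched 1 gene. In libraries from cultured and transplanted cells infected with reprogramming factors, mRNA of 9 of the 10 ligands was at a measurable level throughout. *Fgf10* was at the lower edge. *Pdgfb* was 2.69-fold higher in transplanted than in cultured cells at 1 week and *Angpt1* was 2.60-fold higher at 2 weeks. *Pdgfa* was 1.95-fold and 1.85-fold higher at the 2 time points, under the 2-fold limit used for a call.

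These ligands are signals that mesenchymal, endothelial and immune cells send to their neighbours. PDGF chains pair into dimers that drive growth and migration of fibroblasts and mural cells, and the C and D chains are secreted in a latent form that extracellular proteases must open. FGF2 acts on many cell types, FGF7 and FGF10 act mainly on epithelium, HGF is the ligand of MET, VEGF-C acts on lymphatic and blood endothelium, and ANGPT1 stabilizes vessels through the receptor TIE2. In the infarcted heart, such ligands are known from granulation tissue and scar formation, where fibroblasts and new vessels are neighbours.

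The cells were MICFs, that is, cardiac fibroblasts from infarcted hearts of 8-week-old C57BL/6 mice, isolated 6 days after infarction. They had been infected with doxycycline-inducible lentiviruses for *Mef2c*, *Gata4* and *Tbx5* (MGT), *Myocd*, *Sall4* and eGFP, so the cultured controls received the same factors. The viruses were separate and the sort was on eGFP alone, so not every sorted cell need carry each factor. *In vivo* samples were eGFP+ cells sorted from infarcted mouse hearts into which these cells had been transplanted, and *in vitro* samples were eGFP+ cells sorted from parallel culture. Each place was sampled at 1 week (day 7) and 2 weeks (day 14), with 2 libraries per group and 8 libraries in all. Doxycycline was given in both places. Host mice also received a daily mixture of tacrolimus, methylprednisolone and mycophenolate mofetil, whereas the culture medium held serum, the TGF-beta receptor inhibitor SB431542 and the JAK inhibitor baricitinib. The effect of the place therefore cannot be told apart from that of these drugs and additives. The preparation was not pure before infection, since by the study's own account it also held macrophages and endothelial cells, and the eGFP sort does not remove infected cells of other types. Whether replicates came from separate animals or wells is not stated in the labels, so p-values measure only the spread between these libraries, and a p over the threshold does not show that values were alike. Because these are bulk samples, fewer cells of a type and less RNA per cell cannot be told apart.

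Expression is given as FPKM, fragments normalized to gene length and library size, which allows levels of different genes to be compared. Each library held between 12304242 and 14546904 fragments on genes, and 1 fragment on a gene of 1 kb was worth an FPKM of 0.0650 to 0.0905. Differences were tested with limma on log2(FPKM + 0.1) over 15708 genes, and a call needed an adjusted p (Benjamini-Hochberg) under 0.01 together with an absolute log2 fold change over 1. All p-values given are adjusted in this way over the 15708 genes unless said otherwise. FPKM were deposited with a scaling between libraries, without which the median of all genes would move to -0.34 (log2) at 1 week and -0.33 at 2 weeks, and genes higher *in vivo* would make up 36.7% instead of 60.6% of the changed genes at 1 week and 32.9% instead of 52.8% at 2 weeks. Without it the values of *Angpt1* and *Fgf2* at 1 week and of *Fgf2*, *Fgf7*, *Hgf*, *Pdgfd* and *Vegfc* at 2 weeks had a negative sign in place of a positive one, none of them called. *Fgf10* missed the filter on low values, which left 9 members in the test, each with between 131 and 804 fragments per library.

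Cell type markers were checked first. The 10 fibroblast markers summed to an FPKM of 14109 to 15009 *in vivo* and 3228 to 3385 *in vitro* at 1 week, and to 12726 to 14073 and 2449 to 2473 at 2 weeks. Macrophage markers were also abundant, at 2737 to 3137 and 5296 to 6033 at 1 week and at 2000 to 2414 and 4940 to 6061 at 2 weeks, in the same order. In all *in vitro* libraries the macrophage sum was above the fibroblast sum, whereas *in vivo* the fibroblast sum was the higher one. Sums over different genes do not give the shares of cell types, but the cultured samples cannot be read as fibroblasts alone. Ligand values are therefore those of the sorted mixture. Endothelial markers summed to 104 to 113 *in vivo* and 14.8 to 15.8 *in vitro* at 1 week, and to 98.8 to 108 and 46.4 to 56.8 at 2 weeks. Mesothelial markers ran the other way, from 16.1 to 18.2 against 255 to 263 at 1 week and from 35.8 to 36.4 against 528 to 536 at 2 weeks. Cardiomyocyte markers reached 16.7 to 19.8 *in vivo* and 168 to 191 *in vitro* at 1 week, and 27.9 to 49.1 and 1037 to 1231 at 2 weeks. Mural markers summed to between 225 and 302 in all libraries, although single markers differed, 5 of 10 being higher *in vivo* and 2 lower at the first time point, against 2 and 4 at the second. Platelet and megakaryocyte markers lay between 53.9 and 91.4, with *Gp1bb* at 0 throughout, and lymphocyte markers summed to at most 3.36.

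**Figure D1:**
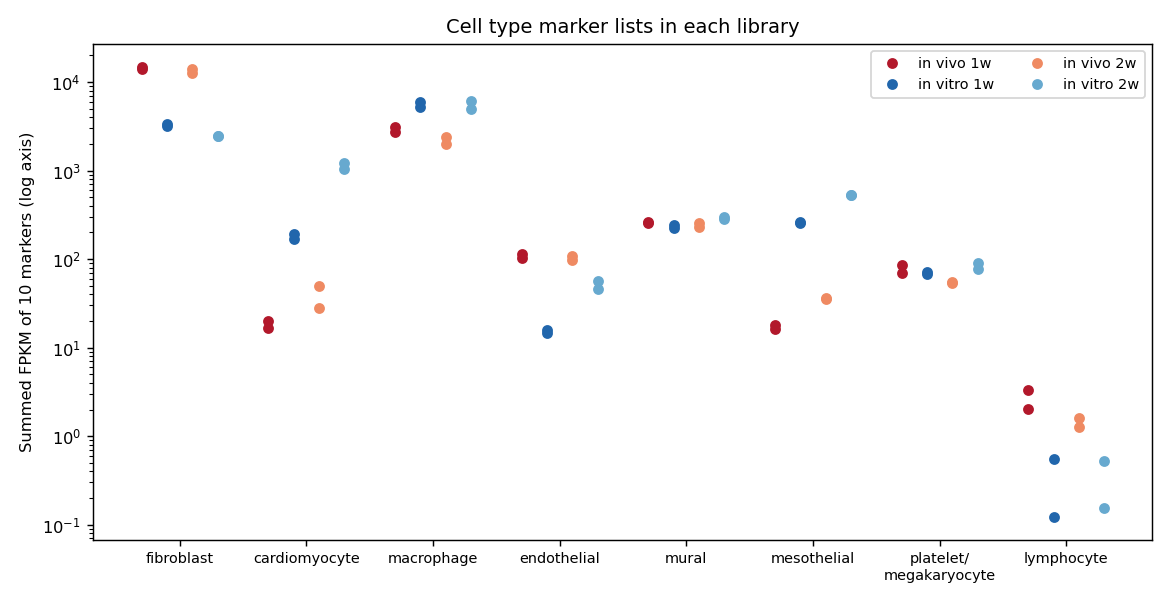
Summed FPKM of 10 markers of each cell type (log axis) in each of the 8 libraries, coloured by group. Endothelial markers are lowest in the *in vitro* samples at 1 week (14.8 to 15.8) and mesothelial markers are higher in all *in vitro* than in all *in vivo* samples.

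Levels of the ligands were compared within each group. At 1 week *in vivo*, *Pdgfa* led with a mean FPKM of 17 ± 1.1 (SD, n = 2), followed by *Vegfc* at 15.8 ± 0.9 with overlapping libraries, and then by *Pdgfb* at 11.6 ± 1.3. At 1 week *in vitro*, *Vegfc* led alone at 20.0 ± 1.8, above *Pdgfd* at 9.13 ± 0.93 and *Pdgfa* at 8.65 ± 0.10, which overlapped. At 2 weeks the leaders were *Pdgfa* at 18.6 ± 0.7 *in vivo* and *Vegfc* at 17 ± 0.2 *in vitro*. The low end of the order was the same in the 4 groups, with *Hgf* at means of 1.56 to 2.79 and *Fgf10* at 0.0717 to 0.126. In the middle of the order at 2 weeks *in vivo*, neighbours in the run *Angpt1*, *Fgf2*, *Pdgfb*, *Pdgfc* and *Fgf7* overlapped in their libraries and were not separated.

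**Figure D2:**
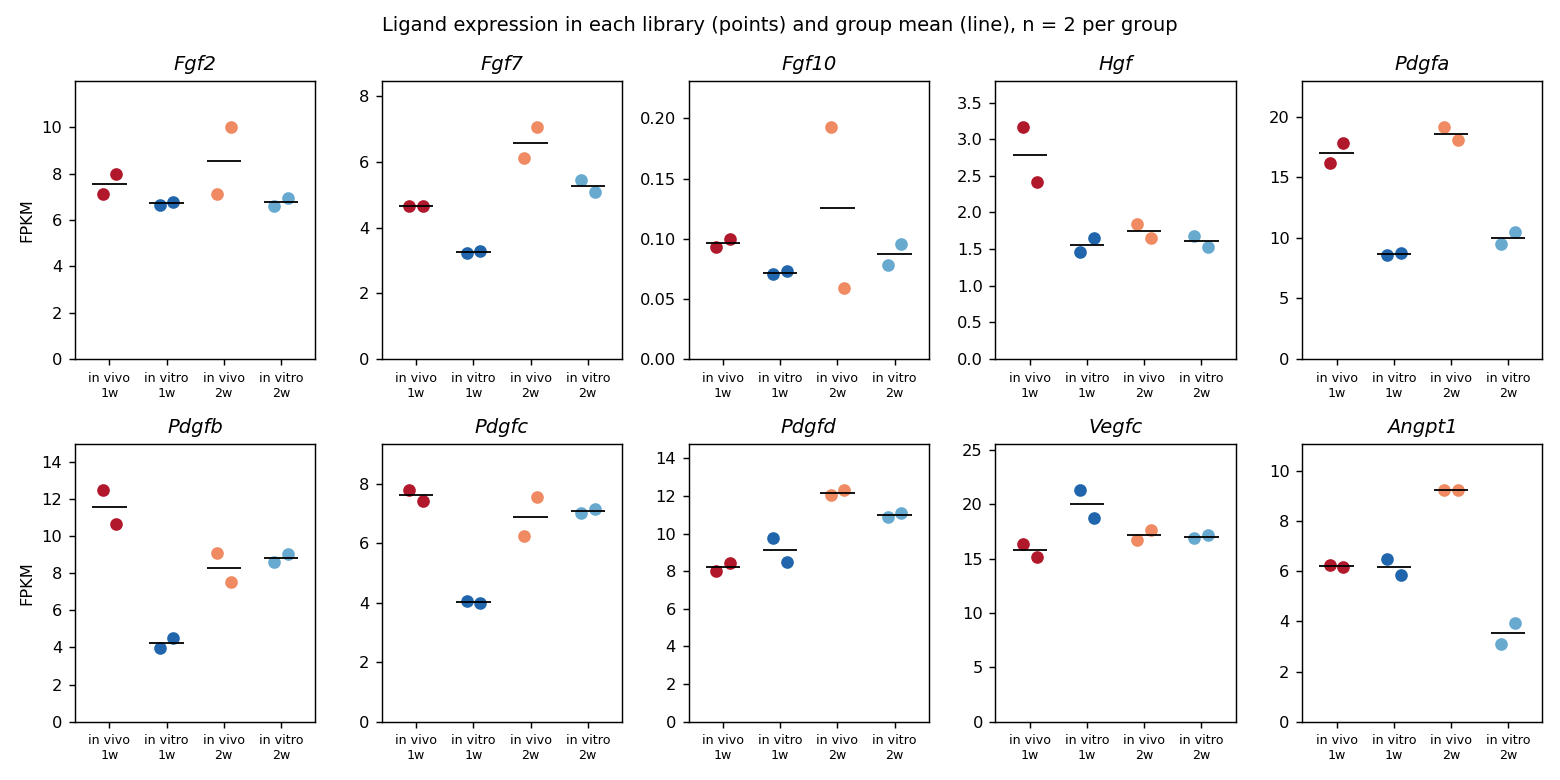
FPKM of each ligand (y axes start at 0 and differ between panels) in the 8 libraries, with points for libraries and lines for group means. *Pdgfb* and *Pdgfc* are low at 1 week *in vitro* only, *Pdgfa* is higher *in vivo* at both time points, and *Angpt1* separates the groups at 2 weeks.

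At 1 week 1 of the 9 tested members was higher *in vivo*, where 7.79% of all genes tested were, and 0 were lower, where 5.07% were. Of the members, 1 was lower at an unadjusted p under 0.05, and limma voom on recovered fragments also called 0 lower. Without the 2-fold limit, 5 members were higher (*Pdgfb*, *Pdgfa*, *Pdgfc*, *Hgf* and *Fgf7*), where 14.7% of all genes were. *Fgf7* and *Hgf* missed the p threshold when the scaling between libraries was left out. Their values were then 0.17 (adjusted p = 0.245) and 0.46 (adjusted p = 0.0607). Both also missed it without the filter on low values (adjusted p = 0.0106 and 0.0211). The same held without the intensity trend (0.0106 and 0.0116) and with libraries of 1 week only (0.0167 and 0.0353). With the replicate number as a block they missed it too (0.0137 and 0.0153). *Hgf* alone missed it with a pseudocount of 0.01 (0.0113) and with quantile normalization (0.0127). The median log2 fold change of the 9 members was 0.50, that of all genes tested -0.01. At 2 weeks 1 member was higher, where 9.02% of genes were, and 0 were lower, where 8.05% were, also under voom and at an unadjusted p under 0.05. Without the 2-fold limit there were 2 (*Angpt1* and *Pdgfa*), where 16.9% of genes passed, and the medians were 0.15 and -0.00.

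**Figure D3:**
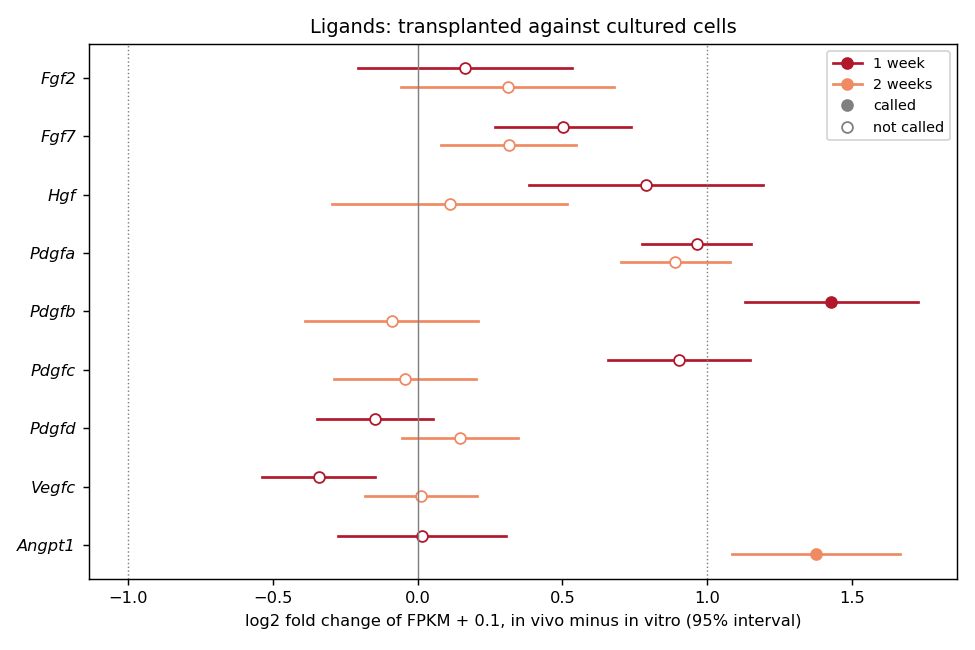
Log2 fold change of FPKM + 0.1, *in vivo* minus *in vitro*, for the 9 tested ligands at 1 week (dark) and 2 weeks (light), with 95% intervals and dotted lines at the 2-fold limit. Filled points mark called genes, which are *Pdgfb* at 1 week (1.43) and *Angpt1* at 2 weeks (1.38).

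Of the PDGF chains, *Pdgfb* (chr15:79995874-80014977, minus strand, GRCm38) changed most with place at 1 week. It encodes the B chain, which endothelial cells make to recruit pericytes and which macrophages also make. Its FPKM was 12.5 and 10.6 *in vivo* against 3.95 and 4.51 *in vitro* at 1 week. At 2 weeks it was 9.07 and 7.53 *in vivo* against 8.58 and 9.03 *in vitro*. The groups were thus far apart at 1 week and overlapped at 2 weeks. *Pdgfb* was higher *in vivo* at 1 week by a log2 fold change of 1.43 ± 0.13 (SE; adjusted p = 0.000173), whereas at 2 weeks the difference was -0.09, with a 95% interval of -0.39 to 0.21 (adjusted p = 0.588). The change between the weeks was itself tested, at -1.52 ± 0.18 (adjusted p = 0.00609). That last call missed the threshold with any 1 of the 8 libraries left out, with values of -1.39 to -1.65 and adjusted p of 0.0128 to 0.0355. Endothelial markers were higher *in vivo* for 10 of 10 at 1 week and for 5 of 10 at 2 weeks. The endothelial median at 2 weeks was 1.07, with 0 lower. In culture 8 of 10 endothelial markers rose between the weeks, and *in vivo* 0 were called over time. The difference between the weeks was called lower for 5 of 10. The mural list was mixed. Its calls at 1 week favoured transplanted cells for 5 of 10 markers and cultured cells for 2, with a median of 1.33. By 2 weeks these numbers were 2 and 4, with a median of -0.58. Over time 5 of 10 mural markers rose in culture and 1 rose *in vivo*. Their difference between the weeks was called lower for 3 of 10 (*Rgs5*, *Kcnj8* and *Abcc9*). Of the macrophage markers, 1 of 10 was higher and 1 lower at 1 week and 6 of 10 were lower at 2 weeks, and their median change between the weeks was -0.69 with 0 called. The part of these cell types in the *Pdgfb* result was not tested.

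*Pdgfc* (chr3:81036416-81214040, plus strand) and *Pdgfd* (chr9:6168584-6378850, plus strand) encode the latent chains, whose CUB domain is cut off by proteases outside the cell. *Pdgfc* measured 7.79 and 7.44 *in vivo* against 4.05 and 4.0 *in vitro* at 1 week, and 6.23 and 7.56 against 7.03 and 7.14 at 2 weeks. Its pattern over the groups had the shape of that of *Pdgfb*, with separate groups at 1 week and overlapping ones at 2 weeks. Its log2 fold change at 1 week was 0.90 ± 0.10 (adjusted p = 0.000569), under the fold limit, and at 2 weeks it was -0.04 (95% interval -0.29 to 0.20). The difference between the weeks was -0.95 (adjusted p = 0.0121) and missed the threshold. *Pdgfd* measured 8.02 and 8.42 against 9.78 and 8.47 at 1 week, and 12.1 and 12.3 against 10.9 and 11.1 at 2 weeks. Its *in vivo* libraries lay just under the *in vitro* ones at 1 week and just above them at 2 weeks. Neither difference passed, at -0.15 (95% interval -0.35 to 0.05) and 0.15 (-0.05 to 0.35). Without the scaling between libraries the 1-week value of *Pdgfd* was -0.485 (adjusted p = 0.00312), under the fold limit.

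The promoters of these closest relatives in the family are shown because the chains shared a latent form while their 1-week values were 0.90 and -0.15. Neither was called at 1 week, and the difference between the 2 genes was not tested. The 250 bases before each RefSeq transcript start (GRCm38.p6, plus strand, 5′ to 3′) are chr3:81036166-81036415 for *Pdgfc* and chr9:6168236-6168485 for *Pdgfd*. Capitals mark a CArG box, the motif bound by serum response factor, in *Pdgfc*, and TATAAA in *Pdgfd*.
Pdgfc: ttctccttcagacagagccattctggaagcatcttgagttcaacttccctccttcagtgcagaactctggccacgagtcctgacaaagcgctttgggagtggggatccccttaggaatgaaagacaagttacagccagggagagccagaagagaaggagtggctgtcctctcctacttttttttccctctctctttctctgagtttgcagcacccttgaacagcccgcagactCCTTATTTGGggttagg
Pdgfd: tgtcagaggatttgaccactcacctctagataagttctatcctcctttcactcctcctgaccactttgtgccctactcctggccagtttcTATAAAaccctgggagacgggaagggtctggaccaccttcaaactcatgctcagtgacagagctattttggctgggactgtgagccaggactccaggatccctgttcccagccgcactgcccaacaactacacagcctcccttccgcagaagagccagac
Both strands of 8 members found in the RefSeq table were searched for 3 motifs, whose matches may overlap each other. *Pdgfb* and *Angpt1* had no entry there and were not searched. The GC box GGGCGG was found in 4 members (*Fgf2*, *Fgf10*, *Pdgfa* and *Vegfc*), and in 32.7% of 32851 promoters of the same length. TATAAA was found in *Pdgfd* and in 12.4% of promoters, starting 160 bases before the start of *Pdgfd*. The CArG box was found in *Pdgfc*, starting 17 bases before the start, and in 1.47% of promoters. These matches describe letters and were not tested as binding sites.

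*Pdgfa* (chr5:138976014-138997370, minus strand) encodes the A chain, a ligand of PDGFR-alpha. Its FPKM was 16.2 and 17.8 *in vivo* against 8.58 and 8.72 *in vitro* at 1 week, and 19.1 and 18.1 against 9.53 and 10.5 at 2 weeks. Each *in vivo* library lay above each *in vitro* library, whatever the week. The fold was 1.95 (95% interval 1.71 to 2.22, adjusted p = 0.000125) at 1 week and 1.85 (1.63 to 2.11, adjusted p = 0.000141) at 2 weeks. Over both weeks the log2 fold change was 0.93 ± 0.06 (adjusted p = 1.44e-05), and no call was made because each estimate was under the 2-fold limit. Without the scaling between libraries the log2 fold changes were 0.62 and 0.56 (adjusted p = 0.000378 and 0.000489). Leaving out *in vivo* replicate 1 at 1 week brought the 1-week value to 1.03 and over the limit. The difference between the weeks was -0.07 (95% interval -0.34 to 0.19). Over both weeks 0 of 9 members were called in either direction, where 9.56% of genes were higher and 7.3% lower, although 6 members were higher and 1 lower at an unadjusted p under 0.05, and voom likewise called 0. Without the fold limit 5 members were higher over both weeks, where 21.7% of genes were. Of these, *Pdgfa* and *Angpt1* kept an adjusted p under 0.01 in every alternative, and *Pdgfb*, *Fgf7* and *Pdgfc* did not.

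The PDGF chains were also summed, as a description of the total. The 4 chains together gave 44.5 and 44.3 *in vivo* against 26.4 and 25.7 *in vitro* at 1 week, and 46.5 and 45.5 against 36.0 and 37.7 at 2 weeks. The sum was similar at both times *in vivo* and lower in every *in vitro* library. Without the scaling between libraries it was 40.7 and 39.7 against 30.3 and 29.4 at 1 week, but 40.1 and 40.8 against 40.5 and 41.2 at 2 weeks, so the lower sum *in vitro* at 2 weeks rests on that scaling. At 1 week *Pdgfb* made up 26.0% ± 2.9 (SD, n = 2) of the sum *in vivo* and 16.3% ± 1.8 *in vitro*, while *Pdgfd* made up 18.5% ± 0.7 and 35.0% ± 2.9. At 2 weeks *Pdgfa* made up 40.4% ± 1.0 *in vivo* and 27.1% ± 0.9 *in vitro*. These shares are of mRNA and do not give the makeup of secreted dimers.

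**Figure D4:**
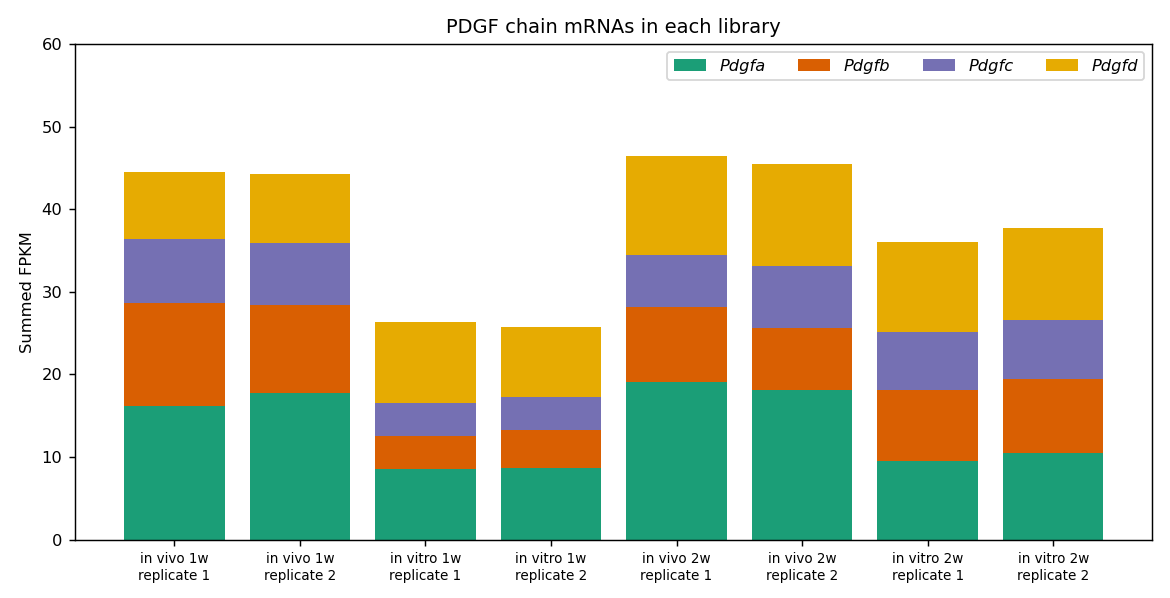
FPKM of *Pdgfa*, *Pdgfb*, *Pdgfc* and *Pdgfd* stacked for each of the 8 libraries, from 0. The bars reach 44.3 to 46.5 *in vivo*, 25.7 to 26.4 *in vitro* at 1 week and 36.0 to 37.7 *in vitro* at 2 weeks.

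*Angpt1* (chr15:42424723-42676977, minus strand) encodes angiopoietin 1, which mural and other mesenchymal cells secrete. At 1 week its FPKM was 6.25 and 6.18 *in vivo* against 6.49 and 5.84 *in vitro*. At 2 weeks it was 9.23 and 9.24 *in vivo* against 3.10 and 3.94 *in vitro*. The groups overlapped at 1 week and were apart at 2 weeks, when both *in vivo* libraries were at their highest and both *in vitro* libraries at their lowest. The log2 fold change was 0.01 at 1 week (95% interval -0.28 to 0.30, adjusted p = 0.943) and 1.38 ± 0.12 at 2 weeks (adjusted p = 0.000138), where *Angpt1* was higher *in vivo*. The change between the weeks was 1.36 ± 0.17 (adjusted p = 0.00683), opposite in sign to that of *Pdgfb*. As with *Pdgfb*, that call was lost with any 1 of the 8 libraries left out (values 1.19 to 1.53, adjusted p 0.0159 to 0.0423). The change between the weeks was called for 1 member upward and 1 downward of 9, against 0.573% and 1.15% of all genes. Fibroblast markers, of which 8 of 10 were higher *in vivo* at each time point, and mural markers, whose counts are given above, are set beside *Angpt1*, and their part in its change was not tested.

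*Vegfc* (chr8:54077606-54187096, plus strand) encodes the main growth factor of lymphatic vessels. It measured 16.4 and 15.1 *in vivo* against 21.3 and 18.7 *in vitro* at 1 week, and 16.7 and 17.6 against 16.9 and 17.2 at 2 weeks. It lay lower *in vivo* at 1 week without overlap, by -0.34 (95% interval -0.54 to -0.15, adjusted p = 0.0146), and the libraries overlapped at 2 weeks, at 0.01 (-0.18 to 0.21). Without the scaling between libraries the 1-week value of *Vegfc* was -0.68 (adjusted p = 0.000828), under the fold limit. Its level varied 1.41-fold over all libraries, the narrowest range of the members.

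*Fgf2* (chr3:37348346-37410108, plus strand), a growth factor released without a signal peptide, measured 7.10 and 8.0 *in vivo* against 6.67 and 6.78 *in vitro* at 1 week. At 2 weeks it measured 7.11 and 9.9998 against 6.59 and 6.97. No *in vitro* library reached an *in vivo* one, but the *in vivo* pair at 2 weeks was wide apart. The differences did not pass, at 0.16 (95% interval -0.21 to 0.53) and 0.31 (-0.06 to 0.68). *Nudt6*, on the opposite strand, overlaps *Fgf2* over 5199 bases and was at an FPKM of 0.662 to 1.96, and since the strand of counting is not stated, its reads could not be set apart. The same holds for 6330403L08Rik, which overlaps *Pdgfa* over 2315 bases at an FPKM of 2.06 to 2.84.

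*Fgf7* (chr2:126034658-126091185, plus strand), keratinocyte growth factor, measured 4.65 and 4.66 *in vivo* against 3.24 and 3.28 *in vitro* at 1 week, and 6.11 and 7.05 against 5.45 and 5.07 at 2 weeks. *Hgf* (chr5:16553495-16620152, plus strand), hepatocyte growth factor, measured 3.16 and 2.41 against 1.46 and 1.66, and then 1.84 and 1.65 against 1.68 and 1.53. *Fgf7* stood apart at both time points, whereas *Hgf* stood apart at 1 week only and its groups overlapped at 2 weeks. For *Fgf7* the log2 fold change was 0.50 (adjusted p = 0.00632) at 1 week and 0.31 (adjusted p = 0.034) at 2 weeks. For *Hgf* it was 0.79 (adjusted p = 0.00956) and 0.11 (95% interval -0.29 to 0.52), with a difference between the weeks of -0.68 (adjusted p = 0.129). All of these were under the fold limit. At 1 week neither gene kept an adjusted p under 0.01 without the scaling between libraries or under several other alternatives named above.

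*Fgf10* (chr13:118669791-118792115, plus strand), a mesenchymal ligand of lung and limb development, was at 3 to 10 fragments per library. Its FPKM was 0.0928 and 0.1001 *in vivo* against 0.0706 and 0.0728 *in vitro* at 1 week, and 0.193 and 0.0590 against 0.0786 and 0.0959 at 2 weeks. The 2 libraries at 2 weeks *in vivo* held the highest and the lowest value. Over 4 *in vivo* against 4 *in vitro* libraries the mean log2(FPKM + 0.1) differed by 0.20 (two-sided exact permutation p = 0.371, where the smallest p this design allows is 0.0286). A difference was not detectable at this depth.

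Changes over time were read within each place. *In vivo*, 0 of 9 members were called between 1 and 2 weeks, where 1.23% of genes rose and 0.949% fell. At an unadjusted p under 0.05, 3 members were higher and 2 lower at 2 weeks, and voom called 0. Without the fold limit 1 was higher, where 2.85% of genes were, namely *Pdgfd* with 0.56 ± 0.08 (adjusted p = 0.00791). Its 2-week libraries both lay above its 1-week ones. *Pdgfd* did not keep an adjusted p under 0.01 in every alternative, and its value was 0.53 to 0.60 with a library left out. *In vitro*, 1 member rose, where 2.76% of genes did, and 0 fell, where 1.05% did, with 2 lower at an unadjusted p under 0.05 and 0 by voom. *Pdgfb* rose by 1.04 ± 0.13 (adjusted p = 0.00231), a value that was close to the limit and missed the call without any of the 4 *in vitro* libraries (0.95 to 1.14, adjusted p 0.0143 to 0.0235). Without the fold limit 3 members were higher in culture at 2 weeks, where 6.16% of genes were, and 1 was lower, where 3.62% were. Besides *Pdgfb* these were *Pdgfc* and *Fgf7*, with values of 0.80 (adjusted p = 0.00297) and 0.67 (adjusted p = 0.0047), and *Angpt1*, with -0.80 (adjusted p = 0.00551). In culture *Pdgfc*, *Fgf7* and *Angpt1* did not keep an adjusted p under 0.01 in every alternative. With a library left out their values were 0.79 to 0.81, 0.62 to 0.73 and -0.97 to -0.63. The *in vivo* values of *Pdgfb* and *Angpt1* were -0.48 (adjusted p = 0.0477) and 0.56 (adjusted p = 0.0256), each opposite in sign to the value in culture.

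Receptors for these ligands were described next, since 16 of the 17 on the list passed the filter and *Fgfr4* did not (highest FPKM 0.256). The number of receptors higher *in vivo* was 5 at each time point and the number lower was 1 and then 2, with median log2 fold changes of 0.35 and 0.20. Among all genes tested, 7.79% were higher and 5.07% lower at 1 week, and 9.02% and 8.05% at 2 weeks. The same shares stand beside the counts of the other lists below. Of the FGF receptors, *Fgfr1* was higher *in vivo*, at 42.2 ± 3.1 (SD, n = 2) against 19.8 ± 1.0 at 1 week and 56.6 ± 0.6 against 20.0 ± 0.2 at 2 weeks. Its log2 fold changes were 1.09 ± 0.07 (SE; adjusted p = 4.22e-05) and 1.49 ± 0.07 (adjusted p = 8.17e-06), and the first was 0.75 without the scaling between libraries, under the fold limit. *Fgfrl1*, a relative that lacks the kinase domain, was higher by 1.96 and 2.08 (adjusted p = 5.6e-06 and 3.41e-06). *Fgfr2*, whose epithelial form is the receptor of FGF7 and FGF10, had values of -0.61 and -0.87, and *Fgfr3* 0.34 and 0.19, none past both limits. The mesothelial markers ran the same way as *Fgfr2*, and their part was not tested.

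*Met*, the HGF receptor, was lower *in vivo*, at 0.479 ± 0.001 against 2.90 ± 0.01 at 1 week and 0.366 ± 0.118 against 2.37 ± 0.03 at 2 weeks. These are log2 fold changes of -2.37 ± 0.21 (SE; adjusted p = 0.00019) and -2.43 ± 0.21 (adjusted p = 0.000133), at 24 to 342 fragments per library. Mesothelial markers were lower *in vivo* as well, 9 of 10 at each time point, and their part was not tested. *Mst1r*, the receptor of the HGF relative MST1, had values of 0.54 and 0.14.

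The signalling PDGF receptors were abundant, and neither was called. *Pdgfra* was at means of 20.0 to 27.5 and *Pdgfrb* at 69.3 to 85.1, and their log2 fold changes were 0.06 and 0.20 for *Pdgfra* and -0.10 and 0.22 for *Pdgfrb*, all with 95% intervals within -0.25 and 0.37. Without the scaling between libraries *Pdgfra* had -0.28 and -0.13, and *Pdgfrb* had -0.45 (adjusted p = 0.00107) and -0.11. *Pdgfrl*, a secreted receptor-like protein without a kinase domain, was higher *in vivo*, at 73.7 ± 0.6 against 3.65 ± 0.17 at 1 week and 99.96 ± 4.1 against 6.02 ± 0.20 at 2 weeks. That was 19.7-fold and 16.4-fold (adjusted p = 1.35e-07 and 2.07e-07).

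Among the endothelial receptors, *Flt4*, the lymphatic receptor of VEGF-C, had values of 0.18 and -0.16, and *Tek*, which encodes TIE2, had 0.37 and 0.08, under the fold limit. *Tie1*, the partner of TIE2, was higher *in vivo* by 2.89 ± 0.22 (adjusted p = 9.37e-05) and 1.63 ± 0.22 (adjusted p = 0.000997). The 2-week call of *Tie1* was not kept on p under every alternative. *Kdr*, the main VEGF receptor of endothelium, was higher by 2.63 ± 0.16 at 1 week (adjusted p = 3.06e-05) and had 0.79 at 2 weeks, and the difference between the weeks was -1.83 ± 0.22 (adjusted p = 0.00623), a call that was lost with any 1 of the 8 libraries left out (-1.67 to -2.0, adjusted p 0.0168 to 0.04). *Flt1* had 0.89 at 1 week and was higher by 1.55 (adjusted p = 6.11e-05) at 2 weeks. *Nrp2*, a co-receptor for VEGF-C, had -0.54 at 1 week and was lower by 1.03 on the log2 scale at 2 weeks (-1.03, adjusted p = 0.000709), a call lost without *in vitro* replicate 2 of that week (-0.97), while *Nrp1* had -0.04 and -0.00. *Kdr* and *Tie1* are themselves on the endothelial marker list, whose counts are given above.

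**Figure D5:**
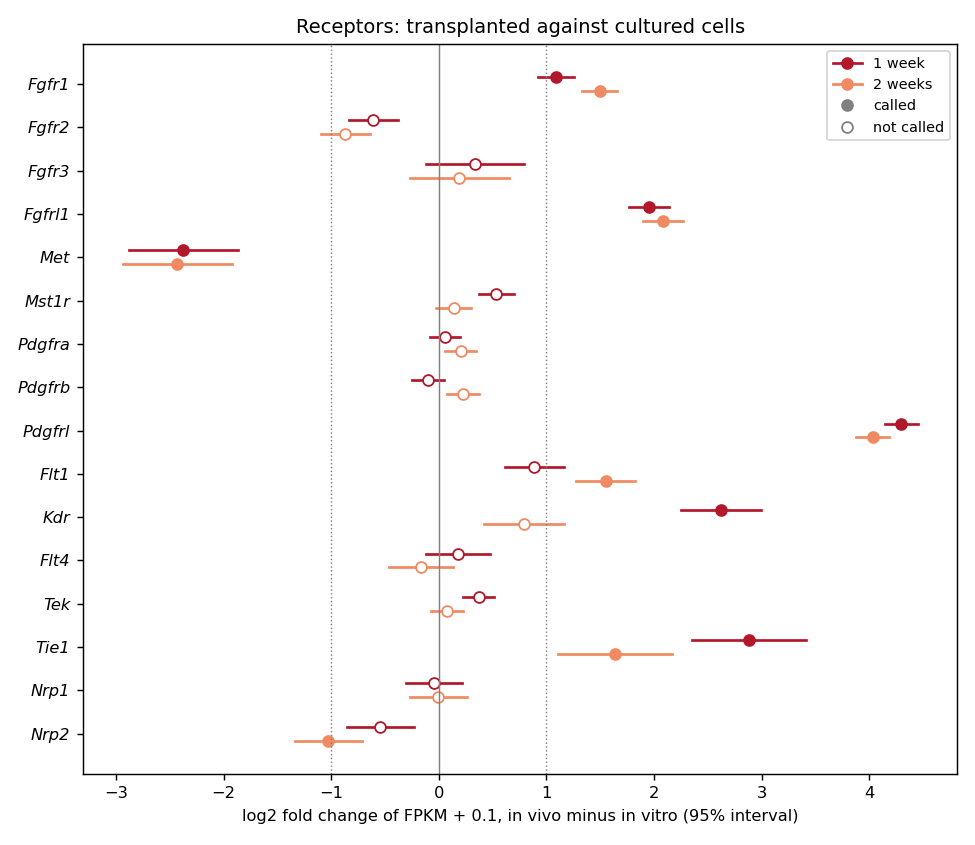
Log2 fold change of FPKM + 0.1, *in vivo* minus *in vitro*, for 16 receptors at 1 week (dark) and 2 weeks (light), with 95% intervals and dotted lines at the 2-fold limit. *Pdgfrl* is farthest to the right (4.30 and 4.03) and *Met* farthest to the left (-2.37 and -2.43), while *Nrp1* lies nearest to 0 (-0.04 and -0.00).

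Proteases and inhibitors that open or protect these ligands were measured for 13 of 14 genes. The number higher *in vivo* was 3 at each time point, and the number lower was 1 at 1 week and 2 at 2 weeks. *Adamts3*, which cleaves VEGF-C, was higher by 1.47 and 1.45 (adjusted p = 0.000858 and 0.000708), from a low level of 0.656 to 0.758 *in vitro*, and by 0.85 and 0.89, under the fold limit, with a pseudocount of 1. Its call at 1 week was also lost without *in vivo* replicate 2, and its call at 2 weeks was not kept on p under every alternative. *Spint2*, an inhibitor of the proteases that activate HGF, was lower at -1.91 and -1.83 (adjusted p = 2.19e-05 and 2.06e-05). *Plat* at 1 week, *Pcsk6* at 2 weeks and *Plau* (lower, 2 weeks) are also in these counts and were named after their values were seen.

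Heparan sulfate carriers, which hold FGFs, PDGFs and HGF at the cell surface and in matrix, were measured for 13 of 18 genes. The number higher *in vivo* was 5 at each time point, the number lower 1 and then 2, with median log2 fold changes of 0.70 at both. *Sulf2*, a sulfatase that removes sulfate from heparan sulfate, was higher by 2.22 and 2.45 (adjusted p = 2.16e-06 and 1.21e-06). *Gpc1* was higher by 1.87 and 1.48 and *Hspg2*, which encodes perlecan, by 1.26 and 1.70, the first of the latter being 0.92 without the scaling between libraries. *Gpc3*, a glypican of mesoderm, was lower at -1.07 and -2.42 (adjusted p = 0.000554 and 1.17e-05), and it reached 168 ± 10 *in vitro* at 2 weeks. *Sdc3* and, at 1 time point each, *Agrn*, *Gpc6* and *Sdc4* (lower) complete these counts and were named after their values were seen.

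Feedback and response genes of receptor tyrosine kinase signalling, the Sprouty, Spred, dual-specificity phosphatase and ETV genes, were measured for 13 of 14 genes. None was higher *in vivo* (0 at each time point), while 1 was lower at 1 week and 3 were lower at 2 weeks. At 1 week without the fold limit, 0 were higher and 4 lower. With a library left out, 0 to 1 were higher and 1 to 3 lower at 2 weeks, and without the fold limit 5 were higher and 5 lower. *Dusp5*, a nuclear phosphatase of ERK, was lower at -1.11 and -1.56 (adjusted p = 0.000221 and 3.7e-05). The others lower at 2 weeks were *Spry4* and *Dusp4*, named after their values were seen. The medians of the list were 0.06 and -0.09.

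Other ligands of the same families were measured for 12 of 16 genes, with 2 higher and 0 lower *in vivo* at 1 week, then 1 higher and 2 lower at 2 weeks. *Fgf18*, a ligand of bone and lung mesenchyme, was the 1 called at both time points, at 11.1 ± 1.0 against 5.52 ± 0.79 and then 27.6 ± 1.9 against 7.28 ± 0.22. Its log2 fold changes were 1.00 ± 0.12 (SE; adjusted p = 0.000597) and 1.91 ± 0.12 (adjusted p = 2.6e-05), and the first was 0.67 without the scaling between libraries and 0.86 to 0.91 without either of 2 libraries (replicate 2 of each place), under the fold limit. *Pgf* at 1 week and *Fgf23* and *Angpt2* (both lower, 2 weeks) complete these counts and were named after their values were seen.

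Genes whose pattern over the 8 libraries was most like that of each ligand were listed as a description, by Pearson's r of log2(FPKM + 0.1) among 11444 protein-coding genes. The 8 libraries are shared by all genes and fall into 4 groups, so a high r is common. For *Pdgfa*, 1304 genes had r over 0.9, led by *Gpr153* (0.998) and *Plxdc2* (0.996). For *Pdgfb*, 110 genes did, led by *Stx11* (0.988) and *Arf5* (0.985). For *Angpt1*, 123 genes did, led by *Zfp775* (0.982) and *Kcnt2* (0.979). The pattern of *Pdgfa*, a lasting difference between the places, was thus shared by many more genes than those of *Pdgfb* and *Angpt1*. *Pdgfc* was followed most closely by *Hmg20b* (0.987) and *Ang* (0.983), *Pdgfd* by *Tprgl* (0.982) and *Chic2* (0.981), and *Fgf7* by *Unc119b* (0.987) and *Sema4c* (0.985). *Hgf* was followed by *Ctss* (0.983) and *Atxn1* (0.976), *Vegfc* by *Atg3* (0.958) and *Serinc1* (0.952), and *Fgf2* by *Zfp438* (0.939) and *Fam58b* (0.937).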

How the data were processed

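RNA of eGFP+ cells from 4 groups with 2 libraries each was sequenced and mapped by Novogene. The submitters' processing notes name CASAVA, HISAT2 2.0.5 and mm10, and the counting tool and its use of strand are not given in the sources used here. The deposited values are FPKM, which the authors scaled between libraries. Multiplied by gene length, 100% of values were whole steps (within 0.01), which gave fragments per gene. The library size behind the FPKM was 0.863 to 0.915 times the fragments counted *in vivo* and 1.09 to 1.15 times *in vitro*. Of all genes, 98.26% had the GRCm38 position of GENCODE vM21. Every column with sample values was used (0 left over). The authors tested with DESeq2, which needs counts, so limma 3.58.1 (R 4.3.3) was used on log2(FPKM + 0.1), keeping genes that reached an FPKM of 0.5 in 2 or more libraries. The model had 4 group means and an intensity trend, with Benjamini-Hochberg adjustment, and limits of 0.01 and 2-fold were used, the former on adjusted p, while the study states P without saying that it was adjusted. Fold changes are on that scale and understate low genes.

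The members and lists were chosen with earlier results of these data known. All 10 members were named, every tested receptor, and from each other list up to 4 genes changed the same way at both weeks. For each member the 2 genes most like it were also named, among protein-coding genes averaging an FPKM of 1 or more. PCR copies are no separate molecules, so depth limits cover counting error only. Replicates differed by more than counting error (chi-square per gene 4.25 to 9.22). No pairing by replicate number was seen, as the deviations of same-numbered libraries correlated at -0.048 to -0.011 across genes. With 2 libraries per group this cannot exclude batches of cells shared between places. By the study's account, part of the infected cells was kept for the parallel culture. Alternatives were other pseudocounts, filters, scalings, thresholds and variance models, voom, protein-coding genes only, 1 week only, the replicate number as a block, and each library left out. The procedure was tested on simulated data for the 1-week comparison only, with changes well over the 2-fold limit. Changes near that limit and differences between the weeks were not simulated. Tables were made with Python 3.11.15, numpy 2.4.6, pandas 2.3.3 and scipy 1.17.1, and plots with matplotlib 3.10.9. Promoters came from RefSeq (GRCm38.p6). The values of 1 gene in the protease counts are not reported here.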

Additional observations from a re-analysis of the deposited data

Results flagged for a closer look

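Differences between *in vivo* and *in vitro* samples that themselves differed between 1 and 2 weeks were called by limma's interaction contrast for 2 of the ligands and 7 of the pathway genes named. *Pdgfb* had log2 fold changes of 1.43 (1 week) and -0.09 (2 weeks), a difference of -1.52 (adjusted p = 0.00609). For *Angpt1* it was 0.01 and 1.38, a difference of 1.36 (adjusted p = 0.00683). For *Kdr* it was 2.63 and 0.79, a difference of -1.83 (adjusted p = 0.00623). For *Gpc3* it was -1.07 and -2.42, a difference of -1.35 (adjusted p = 0.00707). These 4 calls were not firm, since those of *Pdgfb*, *Angpt1* and *Kdr* were lost with any 1 library left out, and that of *Gpc3* with any but *in vivo* replicate 2 of 2 weeks (adjusted p up to 0.0453). The same contrast called *Gpc6* (1.38, adjusted p = 0.00815) and *Pcsk6* (1.44, adjusted p = 0.00238) upward, and *Pgf* (-1.57, adjusted p = 0.00929), *Plau* (-2.29, adjusted p = 0.00516) and *Sdc4* (-1.24, adjusted p = 0.00597) downward. These 5 were named after their values were seen, and their own values with a library left out were not computed.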

How the results depend on the processing

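The week-by-week calls of *Pdgfb* at 1 week (1.09 to 1.54 over all alternatives) and *Angpt1* at 2 weeks (1.05 to 1.545) were kept under every alternative run. With no fold limit the number of members higher *in vivo* was 5 instead of 1 at 1 week, 2 instead of 1 at 2 weeks and 5 instead of 0 over both weeks, and 1 instead of 0 rose *in vivo*, while in culture 3 instead of 1 rose and 1 instead of 0 fell. With each library left out in turn, 1 to 2 members were higher at 1 week, 2 only without *in vivo* replicate 1 of that week (*Pdgfa*). The 1 member that rose in culture became 0 with a pseudocount of 1, with quantile normalization and when FPKM were left unscaled between libraries, where *Pdgfb* had 0.91, 0.998 and 0.996, and 0 to 1 with a library left out. The members called for a difference between weeks, 1 in each direction, became 0 without a filter, without the intensity trend and with any library left out (0 to 0 each way). With the replicate number as a block they also became 0 and 0, at adjusted p of 0.0157 for *Pdgfb* and 0.0185 for *Angpt1*, and the block changed no other call of a member. *Kdr* and *Gpc3* lost the call between weeks under the same settings, except *Gpc3* without *in vivo* replicate 2 at 2 weeks, and *Gpc3* also with quantile normalization.

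Of all genes, 271 were called for the difference between weeks, against 72 without a filter, 71 without the trend, 27 with the block, 473 by voom, 463 with protein-coding genes only, 677 at an adjusted p under 0.05 and 2 to 86 with a library left out. Between weeks *in vivo*, 342 genes became 727 at an adjusted p under 0.05, 737 with no fold limit and 11 to 221 with a library left out, and *in vitro* 599 became 1003, 1536 and 198 to 555. With no fold limit, 2020 genes became 4259 at 1 week, 2682 became 5376 at 2 weeks and 2648 became 6805 over both weeks, the last being 1586 with a pseudocount of 1. Without the scaling between libraries, genes higher *in vivo* made up 36.7% instead of 60.6% of the changed genes at 1 week, and 32.9% instead of 52.8% at 2 weeks.

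Without that scaling, signs turned at 1 week for *Angpt1* (-0.32), *Fgf2* (-0.18), *Flt4* (-0.15) and *Pdgfra* (-0.28). At 2 weeks they turned for *Fgf7* (-0.012), *Hgf* (-0.20), *Vegfc* (-0.32), *Pdgfd* (-0.18), *Fgf2* (-0.016), *Tek* (-0.25), *Pdgfrb* (-0.11), *Pdgfra* (-0.13), *Mst1r* (-0.19) and *Fgfr3* (-0.12). Over both weeks they turned for *Pdgfd* (-0.33) and *Fgf2* (-0.10), and over time in culture for *Hgf* (-0.0074) and *Fgf2* (-0.039). With quantile normalization they turned for *Fgf2* over time in culture (-0.023) and *Nrp1* at 2 weeks (0.032). None of these genes was called at that comparison. With a library left out, values crossed 0 for *Angpt1* at 1 week (-0.061 to 0.088), *Nrp1* at 1 week (-0.175 to 0.093) and 2 weeks (-0.087 to 0.080), and at 2 weeks for *Pdgfc* (-0.18 to 0.093), *Pdgfb* (-0.22 to 0.042) and *Vegfc* (-0.027 to 0.050). They did so for *Pdgfd* over both weeks (-0.051 to 0.052), for *Fgf2* *in vivo* over time (-0.084 to 0.40), in culture (-0.029 to 0.051) and between weeks (-0.095 to 0.39), and for *Hgf* in culture (-0.044 to 0.13). The causes were not tested. Depth limits *Fgf10* at 3 to 10 fragments.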
